A study of Mus musculus with 3 samples.

Results

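Chromatin accessibility at 31 genes of T cells and natural killer (NK) cells was examined in 4 mouse B-lymphoid leukemia cell lines, as a check of how far the lines kept to the B lineage. The 31 genes were taken from a list of symbols, out of 21951 protein-coding genes in the annotation. They were not picked by their values, but this list and the gene lists set beside it were drawn up with earlier results of these data known. For each gene, peaks were counted in the promoter window, which reached 2000 bp before and 200 bp past any annotated transcription start, and in the locus, the gene body with 10 kb on either side.

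T cells recognise antigen through a receptor whose signal is passed on by the CD3 chains, the kinases LCK and ZAP70 and the adaptor LAT. The transcription factors TCF7, GATA3 and BCL11B commit progenitors to the T lineage in the thymus, while TBX21 and EOMES drive the cytotoxic programs of T and NK cells. In committed B-cell progenitors the factor PAX5 is known to repress genes of other lineages, and several signalling genes of T cells are also used by B cells or early lymphoid progenitors.

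ATAC-seq, in which a transposase cuts accessible DNA, had been done on pre/pro-B-cell lines derived from bone marrow of C57BL/6 mice that were homozygous either for wildtype CDK6 (WT) or for the kinase-dead mutant CDK6-K43M (K43M). The cells of both genotypes carried a retrovirus for the fusion kinase BCR-ABL(p185), which transforms them. Each genotype had 2 lines, each line was profiled in 1 library and each library had 1 peak list. The lists are named here WT unnumbered, WT replicate 2, K43M replicate 1 and K43M replicate 2, and values are given in that order throughout. WT unnumbered carried no sample label. It was counted as WT because the design text of the series mentions a first WT line taken over from earlier work. The labels do not say whether a line came from 1 clone, and each genotype is known only through these 2 lines.

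The lists held between 33038 and 39038 peaks, and between 0.127% and 0.142% of them lay in the 31 loci. Read totals are not part of a peak list. The precision of a peak was judged from its summit pileup, recovered from the deposited values. With the authors' settings the pileup counts 200 bp stretches, each centred on a cut of the transposase, that cover the summit. These stretches are called fragments here and are not whole sequenced fragments. Median pileups at the 31 loci were 27, 26, 23 and 22 fragments, and the smallest pileup of any peak in a list was 6 or 7. A locus with fewer fragments than that could not be called, and more were needed where the local background was high. A missing peak therefore means no accessibility detectable at this depth and background. In a bulk library, fewer accessible cells and less accessibility per cell cannot be told apart.

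The identity of the lines was checked first against 28 genes of the B lineage. Of these, 22 (78.6%) had a promoter peak in all 4 lists, against 47.6% of all protein-coding genes. *Pax5*, the factor of B-cell commitment, had promoter folds of 6.39, 6.92, 7.57 and 8.04, where the fold is the summit pileup over the local background of the same library, with 1 added to both. The highest mean folds of the B-lineage list were those of *Cr2* (12.2), *Blk* (11.5) and *Fcrla* (9.43). *Vpreb3*, a relative of the surrogate light chain genes, and *Dntt*, the terminal transferase, had no promoter peak in any list. *Ms4a1*, which encodes CD20 of more mature B cells, had one in both K43M lists only, with folds of 5.81 and 5.10. That pattern was seen at 2% of all genes.

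To show what kind of DNA was accessible at T-cell and NK-cell loci, the reference sequence of GRCm38 is given for the summit and 100 bp on either side at the best-ranked regions that overlapped no GENCODE exon, each written 5′ to 3′ on the strand of its gene. Capitals mark letters of 10 short motifs, searched on both strands, whose letters are spelled out with their shares after the sequences. Motifs can overlap and then share capitals, as AP-1 and TCF/LEF do in the *Gata3* sequence, where EBF1 and SP1 also overlap. The first group comes from regions with a peak in all 4 lists. The *Eomes* sequence overlaps an exon of the RefSeq gene Gm33460.
Gata3 chr2:9879561-9879761 (minus strand): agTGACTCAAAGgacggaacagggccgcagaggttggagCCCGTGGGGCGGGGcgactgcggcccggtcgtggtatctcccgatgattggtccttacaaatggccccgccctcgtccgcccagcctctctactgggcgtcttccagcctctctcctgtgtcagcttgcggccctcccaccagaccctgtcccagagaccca
Ctla4 chr1:60916561-60916761 (plus strand): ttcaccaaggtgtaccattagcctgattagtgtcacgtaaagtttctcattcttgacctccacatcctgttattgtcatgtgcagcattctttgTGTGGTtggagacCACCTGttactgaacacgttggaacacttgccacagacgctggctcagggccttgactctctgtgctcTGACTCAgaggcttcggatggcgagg
Eomes chr9:118489770-118489970 (plus strand): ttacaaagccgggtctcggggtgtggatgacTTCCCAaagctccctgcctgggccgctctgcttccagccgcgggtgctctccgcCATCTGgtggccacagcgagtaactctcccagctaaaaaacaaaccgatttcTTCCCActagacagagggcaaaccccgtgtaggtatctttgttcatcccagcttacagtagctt
Cd247 chr1:165853126-165853326 (plus strand): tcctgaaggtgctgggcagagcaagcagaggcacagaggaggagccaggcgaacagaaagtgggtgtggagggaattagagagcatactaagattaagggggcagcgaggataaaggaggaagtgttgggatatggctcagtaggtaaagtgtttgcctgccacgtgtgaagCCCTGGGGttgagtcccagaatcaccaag

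The next 4 sequences come from regions whose peaks were restricted to the lists of 1 genotype. Both *Klrb1c* regions had a peak in the WT lists only, and the *Cd2* and *Cd247* regions in the K43M lists only. In the second *Klrb1c* sequence the GATA match and the RUNX match, on the other strand, overlap where they meet.
Klrb1c chr6:128786475-128786675 (minus strand): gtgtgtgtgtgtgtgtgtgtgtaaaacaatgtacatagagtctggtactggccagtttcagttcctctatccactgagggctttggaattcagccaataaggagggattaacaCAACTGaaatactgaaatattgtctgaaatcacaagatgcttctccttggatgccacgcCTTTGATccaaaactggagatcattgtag
Klrb1c chr6:128770992-128771192 (minus strand): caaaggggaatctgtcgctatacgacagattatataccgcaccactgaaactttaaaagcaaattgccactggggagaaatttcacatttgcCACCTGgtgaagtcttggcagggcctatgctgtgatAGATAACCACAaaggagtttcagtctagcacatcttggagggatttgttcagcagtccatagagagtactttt
Cd2 chr3:101270888-101271088 (minus strand): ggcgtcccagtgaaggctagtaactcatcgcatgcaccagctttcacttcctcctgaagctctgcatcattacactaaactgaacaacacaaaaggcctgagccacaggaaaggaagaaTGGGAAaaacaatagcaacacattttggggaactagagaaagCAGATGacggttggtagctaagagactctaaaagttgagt
Cd247 chr1:165792181-165792381 (plus strand): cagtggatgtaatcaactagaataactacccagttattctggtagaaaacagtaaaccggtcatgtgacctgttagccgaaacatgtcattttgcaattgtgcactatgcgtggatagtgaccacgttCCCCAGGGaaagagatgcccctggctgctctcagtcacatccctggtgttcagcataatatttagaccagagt

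The last group shows 150 bp before the curated RefSeq starts of 4 genes whose promoter values are described further on. It was chosen after the values had been seen. The bases were placed to overlap no exon of the gene itself, which moved them outward by 369 bp for *Tcf7*, by 61 bp for *Klrd1* and by 52 bp for *Cd5*. They are not upstream of the whole gene at *Klrd1*, where the RefSeq gene begins further out. The same holds at *Gata3*, where both the GENCODE and the RefSeq gene begin further out. The *Gata3* bases overlap an exon of the GENCODE gene Gm13256. In the *Klrd1* sequence an E-box and AP-1 share capitals.
Tcf7 chr11:52283384-52283533 (minus strand): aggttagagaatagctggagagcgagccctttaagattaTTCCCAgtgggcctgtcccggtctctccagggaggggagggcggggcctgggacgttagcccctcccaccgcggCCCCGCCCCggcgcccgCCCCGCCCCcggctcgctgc
Klrd1 chr6:129591599-129591748 (plus strand): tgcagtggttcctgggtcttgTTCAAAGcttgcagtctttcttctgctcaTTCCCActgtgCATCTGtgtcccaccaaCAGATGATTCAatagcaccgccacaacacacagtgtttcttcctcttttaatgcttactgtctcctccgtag
Gata3 chr2:9878601-9878750 (minus strand): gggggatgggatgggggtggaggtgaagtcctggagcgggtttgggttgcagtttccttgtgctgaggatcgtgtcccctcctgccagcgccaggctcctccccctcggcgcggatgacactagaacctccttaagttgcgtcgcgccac
Cd5 chr19:10739027-10739176 (minus strand): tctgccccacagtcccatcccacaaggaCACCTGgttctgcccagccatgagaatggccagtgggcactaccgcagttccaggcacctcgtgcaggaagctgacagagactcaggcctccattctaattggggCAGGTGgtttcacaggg

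Within 100 bp on either side of the summit, 37 of the 65 regions at the 31 loci (56.9%) held an E-box, spelled CANCTG, against 48.0% of all 50867 regions on assembled chromosomes. RUNX letters, spelled TGTGGT, were in 26.2% of the regions at these loci and in 22.5% of all regions. The TCF/LEF letters CTTTGAN were in 15.4% and 11.7%. Ikaros letters (TGGGAA) were in 30.8% here and in 15.4% of all regions. For EBF1, the letters CCCNNGGG were in 18.5% here and in 15% of all regions. GATA letters (AGATAA) were in 2 regions, or 3.08%, against 5.84%. T-box letters (GGTGTGA) were in 3 regions, or 4.62%, against 2.92%. The ETS letters CAGGAAGT or CCGGAAGT were in 7.69%, against 8.12%. AP-1 letters, spelled TGANTCA, were in 13.8%, against 7.60%. For SP1, GGGGCGGGG was in 6.15%, against 5.93%. Several comparisons looked different among the 27 regions found in every list. There the ETS share was 18.5%, against 10.3% of all regions found in every list, so that its order turned, and the TCF/LEF share was 18.5%, against 9.74%. The Ikaros shares came closer, with 18.5% against 14.7%. E-box letters were in 55.6% against 44.0%, RUNX in 29.6% against 20%, EBF1 in 22.2% against 16.5% and AP-1 in 11.1% against 6.35%. SP1 letters were in 11.1% against 10.8%, T-box letters in 3.7% against 2.78%, and GATA letters in 0 of the 27 against 4.39%. These matches describe letters and were not tested.

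Most of the T-cell and NK-cell genes had no promoter peak in any line. Of 31 genes, 19 (61.3%) had a promoter peak in no list, against 43.4% of all protein-coding genes. Another 8 (25.8%) had one in all 4 lists, against 47.6%. These 8 were *Cd2*, *Cd28*, *Lck*, *Zap70*, *Lat*, *Tcf7*, *Gata3* and *Klrd1*. Of the other 4 genes, *Cd5* had a promoter peak in both K43M lists and in neither WT list, a pattern of 2% of all genes. *Cd3d*, *Cd6* and *Cd7* had other mixed patterns, which 6.49% of all genes had. No member had a promoter peak in both WT lists only, against 0.515% of all genes.

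The count was similar with another annotation. With the starts of curated RefSeq mRNAs alone, an alternative chosen after the data had been seen, 8 of 31 genes again had a peak in all 4 lists, against 47% of 21000 genes, and they were the same 8. *Cd5* alone had one in both K43M lists only (1.94% of all genes), and 20 had none (44.3% of all genes), because the *Cd3d* call was lost.

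**Figure D1:**
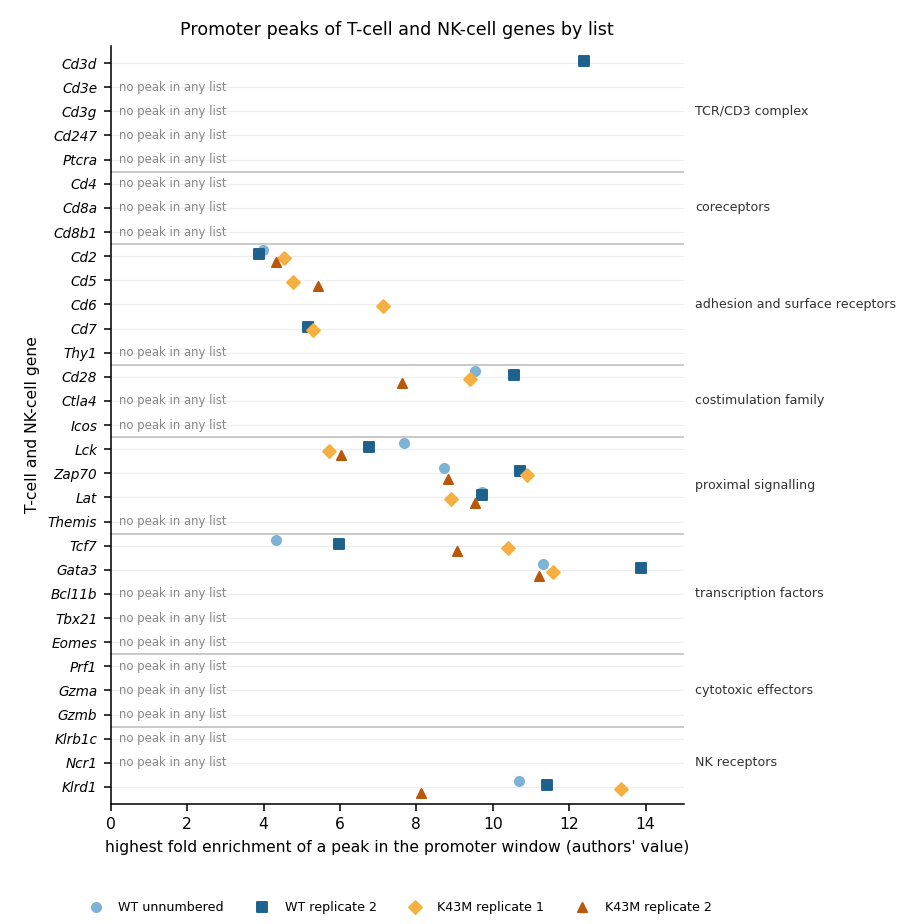
Highest fold enrichment of a peak in the promoter window of each of the 31 genes (x axis, authors' ratio over local background) for the 4 lists, genes grouped by role on the y axis. Each symbol is 1 list, and 19 genes have no symbol because no list held a promoter peak. The *Tcf7* symbols of the K43M lists (10.4 and 9.06) lie to the right of the WT symbols (4.34 and 5.98), while the symbols of the genotypes overlap at *Zap70*, *Gata3* and *Klrd1*.

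By list, 8, 10, 11 and 9 members had a promoter peak. The K43M mean exceeded the WT mean by 1.0 gene (exact permutation test over the 6 assignments of lists to genotypes, two-sided, p = 0.667). With 2 lists per genotype this test cannot give less than 0.333. The difference was 0 without WT unnumbered and 0 without K43M replicate 1.

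Other T-cell and NK-cell genes, 45 genes of signalling, transcription and effector function, were counted the same way. Of these, 13 (28.9%) had a promoter peak in all 4 lists, against 47.6% of all genes, and 23 (51.1%) in none, against 43.4%. The highest mean folds were at *Fyn*, a kinase that B cells express too (folds 10.0, 12.3, 13.1 and 12.4), *Runx3*, a factor of cytotoxic T cells (8.33, 8.26, 13.1 and 13), and *Notch1*, the receptor that starts T-lineage commitment (9.86, 9.73, 10.9 and 11.5). *Rora* and *Tox* had a promoter peak in the K43M lists only, with folds of 5.71 and 5.59 at *Rora* and 4.24 and 4.51 at *Tox*, a pattern of 2% of all genes, and no gene of this list did so in the WT lists only.

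**Figure D2:**
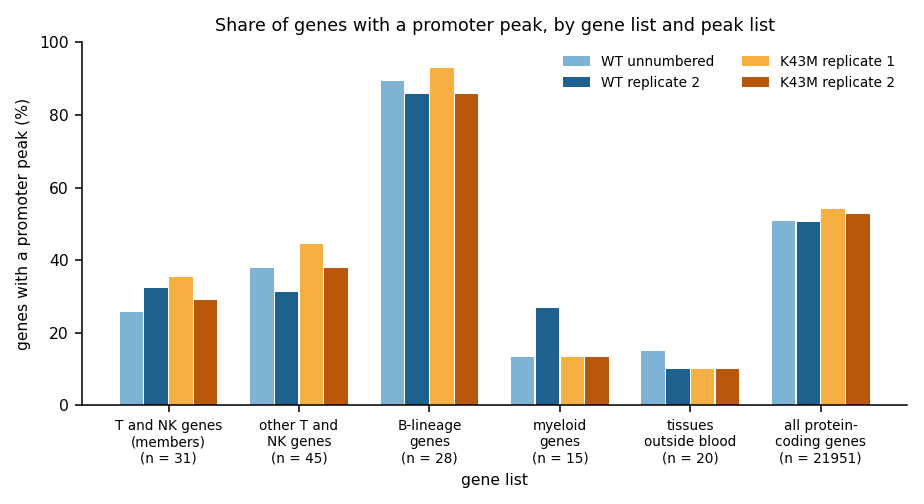
Share of genes with a promoter peak (y axis, percent) in 5 gene lists and among all protein-coding genes (x axis, with the number of genes), 1 bar per peak list. B-lineage genes reach between 85.7% and 92.9%, the 31 T-cell and NK-cell genes between 25.8% and 35.5%, and all genes between 50.6% and 54.0%.

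Counting the whole locus, 16 of 31 genes had a peak in all 4 lists, against 62.5% of all genes, and 10 had none, against 26.1%. A peak anywhere in the locus counted, so that *Cd4* was among the 16 although it had no region common to all 4 lists. The lists held 47, 44, 52 and 44 peaks in the 31 loci. The K43M mean was 2.5 peaks above the WT mean (exact permutation test, two-sided, p = 1.0), and the order turned to 1.5 peaks fewer in K43M without K43M replicate 1 (difference -1.5). Merged over lists, the peaks formed 65 regions. Of these, 27 (41.5%) had a peak in all 4 lists, against 41.2% of all 50965 regions, 5 (7.69%) in the WT lists only, against 4.51%, and 7 (10.8%) in the K43M lists only, against 7.64%. A further 13 were seen in 1 list, a class that held 28.7% of all regions. The remaining regions had a peak in 3 lists (9) or in 1 list of each genotype (4).

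Some locus peaks lay at the promoters of neighbours. While 17 of the 65 regions overlapped a promoter window of a member in a list and 40 overlapped no promoter window of a protein-coding gene, 8 overlapped only that of another protein-coding gene. Without peaks at promoters of any other gene, 10 rather than 16 members had a locus peak in all 4 lists. The share of all genes under that rule was not counted, so the fall cannot be called particular to the members.

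**Figure D3:**
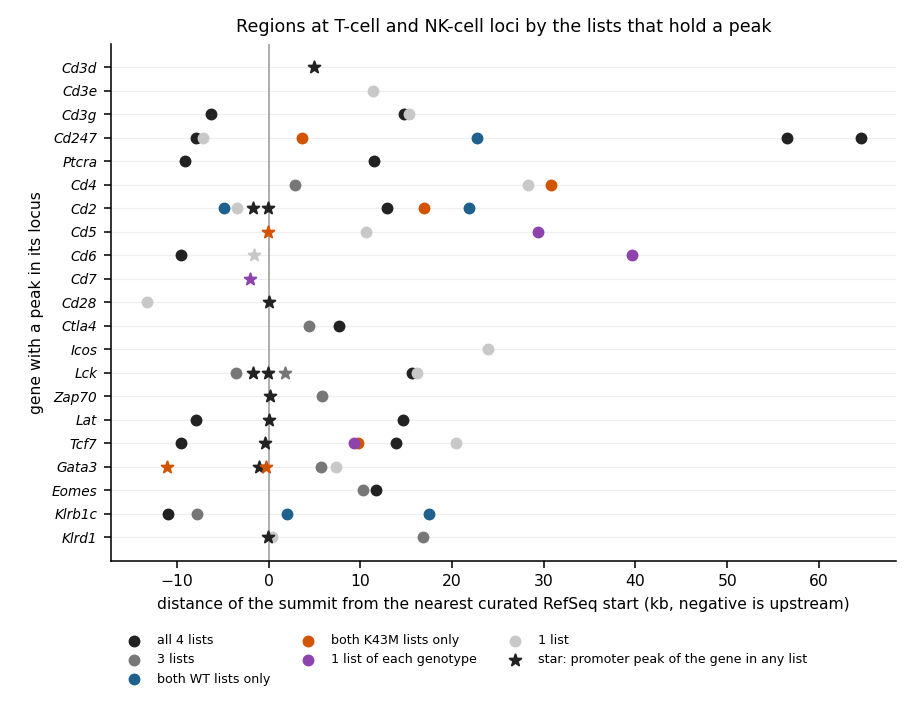
Regions at the 21 loci with a peak, placed by the distance of the summit from the nearest curated RefSeq start of the gene (x axis, kb, negative is upstream) and coloured by the lists that held a peak. Stars mark regions that gave the gene a promoter peak in any list. Stars in all 4 lists gather at the start line for *Cd2*, *Cd28*, *Lck*, *Zap70*, *Lat*, *Tcf7*, *Gata3* and *Klrd1*, and coloured points restricted to 1 genotype are spread over *Cd247*, *Cd4*, *Cd2*, *Cd5*, *Tcf7*, *Gata3* and *Klrb1c*.

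Of the receptor complex, none of the 5 genes had a promoter peak in all 4 lists. *Cd3e*, which encodes the signalling chain CD3ε, had a single peak in its locus, in K43M replicate 2 only, with a fold of 5.91 at 11350 bp beyond its start. *Cd3d*, the CD3δ gene next to it, had 1 region in all 4 lists, at chr9:44986128-44987064 over its 3′ exons and 4909 bp beyond the curated start. Its folds were 12.7, 12.4, 11.2 and 11.7, with both WT folds above both K43M folds by a small margin (ratio of mean folds 0.91). This region touched the window of an internal noncoding start in WT replicate 2, which is the only reason that *Cd3d* had a promoter peak in 1 list. It also lies 6264 bp upstream of *Cd3g*, the CD3γ gene that runs the other way, and counts in both loci. The other *Cd3g* region in all 4 lists lay at the promoter of *Ube4a*, with folds of 10.4, 9.44, 9.86 and 9.05.

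*Cd247*, which encodes the ζ chain, had 6 regions and no promoter peak by GENCODE or curated RefSeq starts. The region 7890 bp upstream of its start had folds of 6.67, 6.28, 7.12 and 7.09, and there RefSeq places an exon of a longer *Cd247* transcript that is not among the curated mRNAs. Inside the gene, a region at 3600 bp had peaks in the K43M lists only (6.42 and 5.86) and one at 22716 bp in the WT lists only (6.85 and 5.36). The calls at those 2 regions went in opposite directions, on pileups of 13 and 12 fragments at the first and 16 and 11 at the second. Regions at 56545 bp and 64545 bp were in all 4 lists, with folds between 4.79 and 5.87. *Ptcra*, the pre-T-cell receptor α gene, had no peak in its promoter. Its 2 regions, 9050 bp upstream and 11454 bp beyond the start, lay at the promoters of 2310039H08Rik and *Cnpy3*, and the folds of the second were 11.1, 12.0, 14.1 and 12.7.

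No coreceptor gene had a promoter peak. *Cd8a* and *Cd8b1*, the chains of CD8, had no peak anywhere in their loci, and the nearest peaks lay at least 66581 bp and 50504 bp from their starts. *Cd4* had an intronic region 2844 bp beyond its start that was absent from WT unnumbered and had folds of 5.15, 9.45 and 7.89 in the other lists. The pileups there were 10, 23 and 20 fragments. The only *Cd4* peak of WT unnumbered lay 28326 bp beyond the start, with a fold of 4.40, in a region of no other list. A region in the K43M lists only, with folds of 5.56 and 6.08, lay 30812 bp away at the promoter of *P3h3*.

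Among the adhesion and surface receptors, *Cd2*, whose product binds CD48 on other lymphocytes, had 7 regions, the most of the 31 genes, and 3 of them had a peak in all 4 lists. The region over its start had folds of only 3.15, 3.31, 3.23 and 3.6, with pileups of 27, 31, 29 and 29 fragments. Each fold divides by the local background, which was 7.90, 8.68, 8.30 and 7.34 fragments here, against a median of 2.90, 2.50, 2.36 and 2.32 over all peaks of the lists. The other promoter region, 1733 bp before the start, had folds of 3.97, 3.87, 4.54 and 4.33, with both K43M folds on top. A region 12963 bp beyond the start had folds of 11.5, 7.69, 7.66 and 5.0, and one at 16951 bp had peaks in the K43M lists only (7.04 and 5.88). The WT lists alone held a region 4849 bp upstream (3.54 and 3.97) and another 21902 bp beyond the start (3.47 and 4.78). The upstream region had pileups of 34 and 42 fragments on high local backgrounds of 8.88 and 9.82. At such a background a K43M list could hold many fragments without a call. The region at 21902 bp rested on pileups of 7 and 10 fragments, close to the smallest that could be called.

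*Cd5*, an inhibitory receptor of T cells and B-1 cells, had a region over its start at chr19:10738828-10739220 in the K43M lists only. The folds were 4.76 and 5.42 on pileups of 9 and 12 fragments, close to the smallest that could be called. With a minimum −log10 q of 5 this call was lost. *Cd6*, its neighbour and relative, had an upstream peak 1554 bp before the start in K43M replicate 1 only (7.13), while its region in all 4 lists lay at the promoter of *Slc15a3* (4.31, 6.59, 5.69 and 5.94). *Cd7* had a region at the edge of its window in WT replicate 2 and K43M replicate 1, with folds of 5.15 and 5.28. *Thy1*, the classical surface antigen of mouse T cells, had no peak in its locus, and the nearest peak lay at least 23350 bp from its start.

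One of the 3 genes of the costimulation family had a promoter peak. *Cd28*, the main costimulatory receptor, had a region over its curated start at chr1:60745531-60746540 in all 4 lists, with folds of 9.54, 10.5, 9.40 and 7.62. Both WT folds lay above both K43M folds, the mean ratio of K43M to WT being 0.85. *Ctla4*, its inhibitory counterpart, had no promoter peak but a region 7636 bp beyond its start, past the gene's end, with folds of 9.72, 9.92, 7.99 and 9.62. An intronic *Ctla4* region was absent from WT unnumbered and had folds of 4.38, 6.32 and 4.23. *Icos* had 1 peak, in WT unnumbered only, 23971 bp beyond its start.

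The proximal signalling genes had promoter peaks in all 4 lists at 3 of 4, the highest share of the 8 groups. *Lck*, the kinase that phosphorylates the CD3 chains, had regions at both of its curated starts. The region at the downstream start had folds of 7.67, 6.77, 5.70 and 5.29, with both WT lists above both K43M lists, and the region 1738 bp before the upstream start had 5.30, 5.45, 5.06 and 6.02, where the genotypes overlapped. The strongest region of this locus was the promoter of *Hdac1* (13.3, 12.4, 11.8 and 11.7), and a region at the promoter of *Fam167b*, 3520 bp upstream, was missing from K43M replicate 2. *Zap70*, the kinase that docks on the phosphorylated chains, had a region 123 bp beyond one of its 4 curated starts, at chr1:36766453-36767634, with folds of 8.73, 10.7, 10.9 and 8.82. *Lat*, the adaptor that ZAP70 phosphorylates, had a region over its start with folds of 9.73, 9.73, 8.91 and 9.54. Another region of this locus in all 4 lists lay at the promoter of *Spns1*, with folds of 12.4, 9.34, 11.1 and 10.2. The genotypes overlapped at *Zap70* (ratio of mean folds 1.01), and at *Lat* both WT folds lay above both K43M folds by a small margin (ratio 0.95). *Themis*, a regulator of thymocyte selection, had no peak within its locus, although its gene body of 215459 bp is the longest of the 31.

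Of the transcription factors, *Tcf7* and *Gata3* had promoter peaks in all 4 lists and the other 3 in none. *Tcf7*, the earliest factor of T-lineage specification, had its promoter region at chr11:52283062-52283637, 355 bp before the nearest curated start. RefSeq extends a *Tcf7* exon into it, and the bases printed for *Tcf7* lie within the region. Its folds were 4.34, 5.98, 10.4 and 9.06, on pileups of 9, 13, 30 and 26 fragments. The exact 95% Poisson intervals of these pileups, which cover counting error only, were 4.12 to 17.1, 6.92 to 22.2, 20.2 to 42.8 and 17.0 to 38.1. Both K43M lists lay above both WT lists, and the ratio of mean folds was 1.89. Among regions in all 4 lists, such a separation with K43M higher was seen at 21.2% and with a ratio over 1.5 at 2.27%. Of the other *Tcf7* regions, one 9537 bp upstream (5.56, 5.37, 6.36 and 6.01) also had both K43M folds on top, one in an intron at 9739 bp was in the K43M lists only (4.15 and 3.94), and one at 13930 bp had folds of 7.0, 6.93, 6.57 and 5.0, with both WT folds on top.

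*Gata3*, the factor of T-helper and early T-cell development, had its most enriched region 1061 bp before the curated start, at chr2:9879307-9879991, with folds of 11.3, 13.9, 11.6 and 11.2. The genotypes overlapped there. This region also overlaps the promoter window of another protein-coding gene, 4930412O13Rik, so the peak cannot be given to *Gata3* alone. Over the start itself, at chr2:9878532-9878977, a region was in the K43M lists only, with folds of 3.90 and 4.77 on pileups of 21 and 22 fragments. With windows of 500 bp on either side of the starts, *Gata3* therefore joined *Cd5* as a gene with a promoter peak in the K43M lists only, and *Cd3d* took its place among the 8 genes with one in all 4 lists. The shares of all genes with such windows are not given here. A region 11018 bp upstream, near the start of a noncoding *Gata3* transcript and of 9230102O04Rik, was again in the K43M lists only, with folds of 7.88 and 4.89. An intronic region at 5713 bp was missing from WT replicate 2 and had folds of 5.81, 8.28 and 6.16 elsewhere.

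*Bcl11b*, which seals T-lineage commitment, had no peak in its locus, and the nearest peaks were at least 128924 bp from its start. *Tbx21*, the regulator of interferon-γ production, had none either, with the nearest at least 11740 bp away. *Eomes*, its relative in NK and memory T cells, had no promoter peak but 2 regions downstream of the gene. The one in all 4 lists, 11681 bp beyond the start, had folds of 7.87, 9.36, 5.56 and 5.58, a ratio of mean folds of 0.65. Its pileups were 36, 31, 29 and 26 fragments on local backgrounds of 3.70, 2.42, 4.40 and 3.84, so that the pileups differed less than the folds.

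No peak was found at the cytotoxic effectors. *Prf1*, which encodes the pore-forming perforin, and *Gzma* and *Gzmb*, the granzymes, had no peak in their loci in any list. The nearest peaks were at least 21746 bp, 64726 bp and 113535 bp from their starts.

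The NK receptors did not share a pattern. *Klrd1*, which encodes CD94 and pairs with NKG2 receptors, had a region over its start at chr6:129591528-129591920 in all 4 lists, with folds of 10.7, 11.4, 13.4 and 8.13 that overlapped between genotypes. *Klrb1c*, the NK1.1 antigen of C57BL/6 mice, had no promoter peak, but an intronic region at chr6:128786476-128786903, 2066 bp beyond its curated start, was in the WT lists only (8.02 and 7.37). A second WT-only region, 17549 bp beyond the start, had folds of 7.04 and 6.18. The *Klrb1c* locus held 4, 3, 2 and 0 peaks. A further region at the upstream edge of the locus, called in all 4 lists, had folds of 4.62, 4.18, 3.54 and 2.82 on a local background of 12.0, 9.52, 10.6 and 7.52 fragments. Reads with several positions had been removed, so accessibility in stretches that *Klrb1c* shares with related genes would not be seen. *Ncr1*, the NKp46 gene and a hallmark of NK cells, had no peak in its locus, with the nearest at least 63534 bp from its start.

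**Figure D4:**
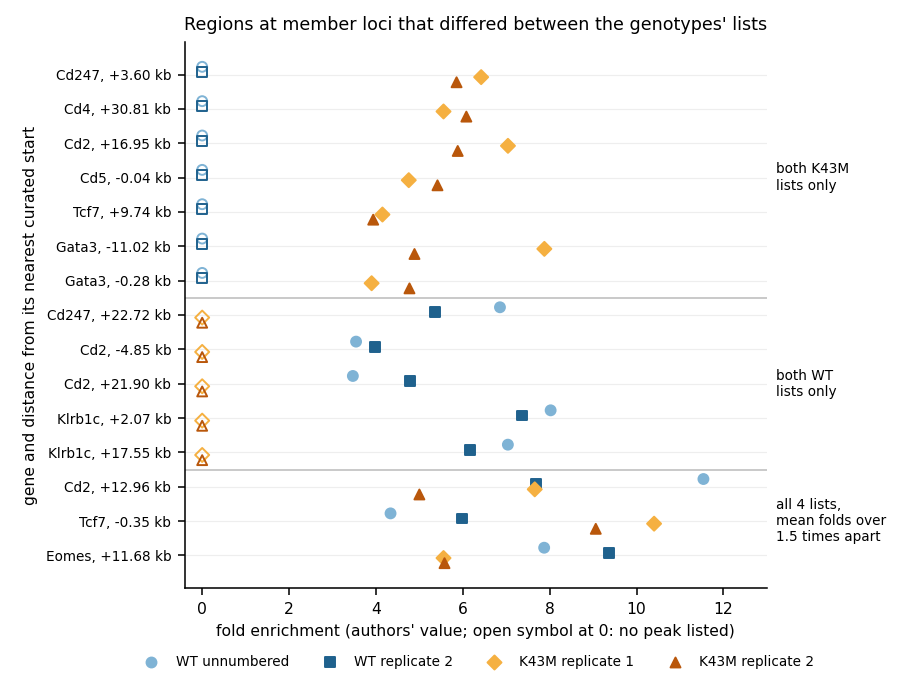
Fold enrichment (x axis) in the 4 lists at the regions of the 31 loci that differed between the genotypes' lists, named by gene and by distance from the nearest curated start (y axis). Open symbols at 0 mean that the list held no peak there. The 7 regions in the K43M lists only have folds between 3.90 and 7.88, the 5 in the WT lists only between 3.47 and 8.02, and the last group holds the 3 regions in all 4 lists whose mean folds lay over 1.5 times apart.

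Of the 27 regions in all 4 lists, both WT folds lay above both K43M folds at 11 and below them at 6, and the genotypes overlapped at 10. Over all regions in all 4 lists these separations occurred at 20.5% with WT higher and 21.2% with K43M higher. With within-list percentile ranks by −log10 q in place of folds, a description added after the data had been seen, WT was higher at 7 and K43M at 9. The order of these 2 counts thus turned with the measure. The shares of all regions separated by rank are not given here, so the rank counts cannot be set against them. A mean fold more than 1.5 times apart was found at the *Tcf7* promoter with K43M higher, and at the *Eomes* and *Cd2* downstream regions with WT higher, the latter against 1.71% of all regions. The percentile ranks kept the genotypes apart at *Tcf7* and *Eomes*, but not at *Cd2*.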

How the data were processed

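ATAC-seq peak lists of 4 libraries, 2 per genotype, were analysed. Groups came from the sample labels for 3 lists and from the series' design text for the list without a sample. According to the methods and labels, the authors trimmed reads with Trimmomatic 0.36, mapped them to mm10 with bwa-mem 0.7.15, removed blacklisted regions with bedtools and multimapping or low-quality reads with samtools 1.3.1, and called peaks per library with MACS2 2.1.0 (200 bp extension, 100 bp shift), with no control named. The deposited fold enrichment is the authors' ratio of the summit pileup to the local background of the same library. The deposited −log10 p and −log10 q belong to single lists, and were used only to rank and filter peaks within a list and to recover pileups.

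Promoter windows and loci came from GENCODE release 21, the authors having used release 13 of the same build, and the overlap required was 1 bp. Peaks of the 4 lists that overlapped were merged into regions. Curated starts were those of RefSeq mRNAs on GRCm38. Lists were compared by exact permutation, two-sided, and genes and regions were only counted, beside the same count over all features. The self-test on simulated data placed 100% of 5000 regions and 20000 windows correctly and recovered 100% of 3099 pileups.

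Named were all 31 members, neighbours whose promoter held a counted peak, and from the other lists the 3 genes with the highest mean fold among those with a promoter peak in all 4 lists, those with one in both lists of 1 genotype only, and B-lineage genes without any. *Pax5* was added after its values had been seen, and the values of 1 gene are not reported here. Printed regions were the best by their worst within-list percentile. The members and lists were chosen with earlier results of these data known. Alternatives changed the window, transcripts, flank, neighbours, threshold, number of peaks, overlap rule and libraries. Tables were handled with pandas 2.3.3 and numpy 2.4.6 under Python 3.11.15, intervals came from scipy 1.17.1, sequences from pysam 0.24.0, and figures from matplotlib 3.10.9.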

Additional observations from a re-analysis of the deposited data

How the results depend on the processing

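No paired analysis was possible because the lines of the genotypes were separate and shared only 1 labelled replicate number. Of 80 alternative values, 69 kept their direction (differences, whatever their size) or stayed within 1.5 times (counts). The count of members with a promoter peak in both K43M lists only, 1, became 2 (*Cd5* and *Gata3*) with windows of 500 bp on either side of each start, 0 with a −log10 q of at least 5 and 0 with the same number of peaks per list. It lay between 1 and 2 when libraries were left out one at a time, the higher value without K43M replicate 2, which added *Cd6*. The share of 2% of all genes belongs to the main setting, and the shares under these other settings are not given here. The count in both WT lists only lay between 0 and 1, the higher value, from *Cd3d*, without WT unnumbered. Members with a locus peak in all 4 lists fell from 16 to 10 with no flank and to 10 without peaks at promoters of other genes. For all genes these 2 settings were not counted, so the falls cannot be called particular to the members. The difference in peaks at member loci, K43M minus WT, became -0.5 with the same number of peaks per list, lay between 0.5 and 4.5 under the other settings, and ranged from -1.5 (without K43M replicate 1) to 6.5 over the libraries left out. The difference in members with a promoter peak ranged from 0 (without WT unnumbered, and without K43M replicate 1) to 2.0, and under the other settings from 0.5 to 2.0. For changes with the threshold, window or libraries, the cause was not tested.

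The lists hold only called peaks, so signal below the threshold, and the depth that sets it, is not seen. Genome-wide backgrounds of 1.31, 1.13, 1.10 and 0.968 fragments show that the lists did not start from equal depth. With 2 lines per genotype, a difference between genotypes and one between lines cannot be told apart. WT unnumbered was taken to be the first WT line, which the design text says came from earlier work. What that origin adds to a difference between WT and K43M lists was not tested.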

Other observations

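Genes of other lineages were counted as a wider frame. Of 15 myeloid genes, 0 had a promoter peak in all 4 lists, against 47.6% of all genes, and 11 had one in none, against 43.4%. *Lyz2*, the lysozyme gene of myeloid cells, had a promoter peak in the WT lists only, with folds of 7.50 and 7.09. That pattern was seen at 0.515% of all genes. Of 20 genes of tissues outside blood, *Col1a1*, a collagen gene, alone had a promoter peak in all 4 lists (folds 5.63, 6.0, 6.64 and 6.76). In that gene list 16 genes had none, against 43.4% of all genes. Regions per 100 kb of locus were 4.49 for the T-cell and NK-cell members, 7.63 for B-lineage genes, 4.68 for myeloid genes, 2.13 for genes of tissues outside blood and 3.45 for all protein-coding genes.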
